A study of Mus musculus with 8 samples.

Results

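Cyclic nucleotide phosphodiesterases are the enzymes that break down cAMP and cGMP. Here 10 of their genes were followed in the mouse brain cortex, chosen by name as Pde1a, Pde1b, Pde1c, Pde2a, Pde4a, Pde4b, Pde4d, Pde7b, Pde8b and Pde10a. The choice was made with earlier results of these data known. All 10 were among the 13996 genes of the expression values. Male C57BL/6 mice entered the study at an age of 8 weeks, and 4 of them were kept on a normal diet while another 4 were given a high fat diet (HFD, 60% fat by weight). Feeding lasted 8 weeks, so that both groups were 16 weeks old when the cortex was taken, and each mouse gave 1 library of rRNA-depleted total RNA. Values are FPKM (fragments per kilobase of transcript, scaled to the mapped reads of the library), so levels of different genes can be set side by side per length. They were deposited rounded to 0.1, and the read depth is unknown.

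Neurons make cAMP with adenylyl cyclases and cGMP with guanylyl cyclases, and phosphodiesterases end both signals by hydrolysis. The families differ in substrate and in control. Pde1 enzymes are switched on by calcium and calmodulin and cut both nucleotides, Pde2a cuts both and is activated by cGMP, and Pde10a cuts both and is the characteristic phosphodiesterase of the projection neurons of the striatum, the brain region beneath the cortex that receives dopamine. Pde4, Pde7 and Pde8 enzymes cut cAMP. Pde4 is the family inhibited by rolipram, which Pde7 and Pde8 resist. Cyclic AMP acts largely through protein kinase A, which phosphorylates the transcription factor CREB, and CREB binds the cAMP response element (CRE).

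All 10 genes have several start sites, from 3 coding starts in Pde1b, Pde2a and Pde4a to 12 in Pde4d, whose gene spans 1503.51 kb in GENCODE M21. FPKM were given per gene, so start sites were not told apart. RefSeq (GRCm38.p6) listed 31 promoters for the 10 genes, fewer than their coding starts, so that not every start was searched, and some of the 31 overlap. A GENCODE M21 transcript began at 11 of the 18 on the plus strand and at 5 of the 13 on the minus strand. In the 250 bases before each start, the full CRE, TGACGTCA, was found on neither strand of any of the 31, against 1.55% of all 32851 promoters of the same length. Its shorter core TGACG, searched on both strands and read as CGTCA on the opposite one (every full CRE also holds it), was found in 3 of 31, against 17.8% of all. The promoters printed here run 5′ to 3′ on the strand of the gene. Those of Pde10a and Pde1b, at the most upstream start listed, are shown because these genes had the largest decreases among the abundant ones, and those of Pde1a, Pde4a and Pde4b because they are the 3 with the core, which is set in capitals.
Pde10a, chr17:8801495-8801744, plus strand: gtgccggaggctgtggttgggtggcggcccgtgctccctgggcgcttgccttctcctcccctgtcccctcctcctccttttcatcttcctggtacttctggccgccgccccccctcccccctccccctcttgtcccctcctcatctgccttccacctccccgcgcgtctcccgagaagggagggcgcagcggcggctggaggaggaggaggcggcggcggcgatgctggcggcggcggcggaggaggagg
Pde1b, chr15:103502784-103503033, plus strand: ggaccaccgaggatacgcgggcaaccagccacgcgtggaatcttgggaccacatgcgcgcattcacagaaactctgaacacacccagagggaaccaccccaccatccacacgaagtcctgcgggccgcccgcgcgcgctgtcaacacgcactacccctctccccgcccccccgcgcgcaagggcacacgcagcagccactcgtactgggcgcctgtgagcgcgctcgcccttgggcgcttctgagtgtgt
Pde1a, chr2:80038903-80039152, minus strand: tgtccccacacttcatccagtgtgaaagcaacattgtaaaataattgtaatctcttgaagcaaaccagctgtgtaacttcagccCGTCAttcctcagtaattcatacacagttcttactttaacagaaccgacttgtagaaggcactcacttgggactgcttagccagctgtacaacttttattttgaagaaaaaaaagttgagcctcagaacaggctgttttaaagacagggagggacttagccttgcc
Pde4a, chr9:21183851-21184100, plus strand: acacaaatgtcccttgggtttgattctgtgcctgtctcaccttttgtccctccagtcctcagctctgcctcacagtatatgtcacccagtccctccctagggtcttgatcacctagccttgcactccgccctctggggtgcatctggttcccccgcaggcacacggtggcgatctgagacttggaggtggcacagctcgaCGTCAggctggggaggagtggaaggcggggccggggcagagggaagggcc
Pde4b, chr4:102421305-102421554, plus strand: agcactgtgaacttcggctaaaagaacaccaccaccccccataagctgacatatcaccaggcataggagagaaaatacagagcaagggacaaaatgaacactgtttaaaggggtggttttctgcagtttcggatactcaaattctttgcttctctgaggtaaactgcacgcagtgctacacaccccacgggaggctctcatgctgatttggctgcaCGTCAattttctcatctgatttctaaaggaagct
The Pde10a and Pde1b promoters printed were rich in G and C, at 72.8% with 21 CpG and 67.2% with 26 CpG, and those of Pde1a and Pde4b were poor, at 41.6% with 2 CpG and 46.0% with 5 CpG. The Pde4a promoter lay between, at 61.2% with 8 CpG. These matches describe letters in the window and not sites of binding.

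On the normal diet the most abundant of the 10 RNAs was Pde1b, at 73.5 ± 12.6 FPKM (mean ± SD, n = 4 mice, as for all means below), followed by Pde2a at 68.1 ± 8.6, Pde1a at 47.8 ± 9.28, Pde10a at 42.95 ± 11.1 and Pde4b at 40.7 ± 2.49. The ranges of neighbors among these genes overlapped across the mice, with the exception of Pde2a and Pde1a. The ranges of Pde8b at 30.1 ± 4.74 and Pde4d at 23.7 ± 2.28 overlapped, as did those of Pde4a at 15.2 ± 1.77 and Pde7b at 13.6 ± 1.45. Within single mice, Pde8b was above Pde4d in all 4 and Pde4a was above Pde7b in 2. Pde1c was lowest at 5.75 ± 2.68. On HFD the order changed to Pde2a, Pde1a, Pde1b, Pde4b, Pde8b, Pde4d, Pde4a, Pde10a, Pde7b and Pde1c. Pde8b and Pde4d were the 1 pair of neighbors whose ranges still overlapped, and Pde8b was above Pde4d in all 4 HFD mice. Pde10a moved from the fourth place to the eighth.

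Between the diets, 9 of the 10 genes differed at an adjusted p below 0.05 (limma on log2(FPKM + 0.1), two-sided, Benjamini-Hochberg adjustment over 13982 genes). Pde1a, Pde2a, Pde4a and Pde4d were higher on HFD, and Pde1b, Pde1c, Pde4b, Pde7b and Pde10a were lower. Of all genes tested, 33.1% passed the same threshold, 17.7% as higher and 15.3% as lower. In 7 of the 10 genes the change was also larger than 50% (a fold of 1.5 in either direction), as in 7.13% of all genes, 4.23% higher and 2.9% lower. In the same 9 genes the 4 values of one diet did not overlap the 4 of the other, as in 31.9% of all genes, 17.2% with HFD above and 14.7% with HFD below. Because the 10 genes were chosen with earlier results of these data known, these shares do not test the family against all genes. Of the 7 other phosphodiesterase genes measured, 1 passed the threshold and 0 also exceeded 50%. The median log2 fold change of the 10 genes was −0.081, beside 0.0031 over all genes. Nothing in the labels says whether the mice of a diet shared a cage or a day of dissection.

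**Figure D1:**
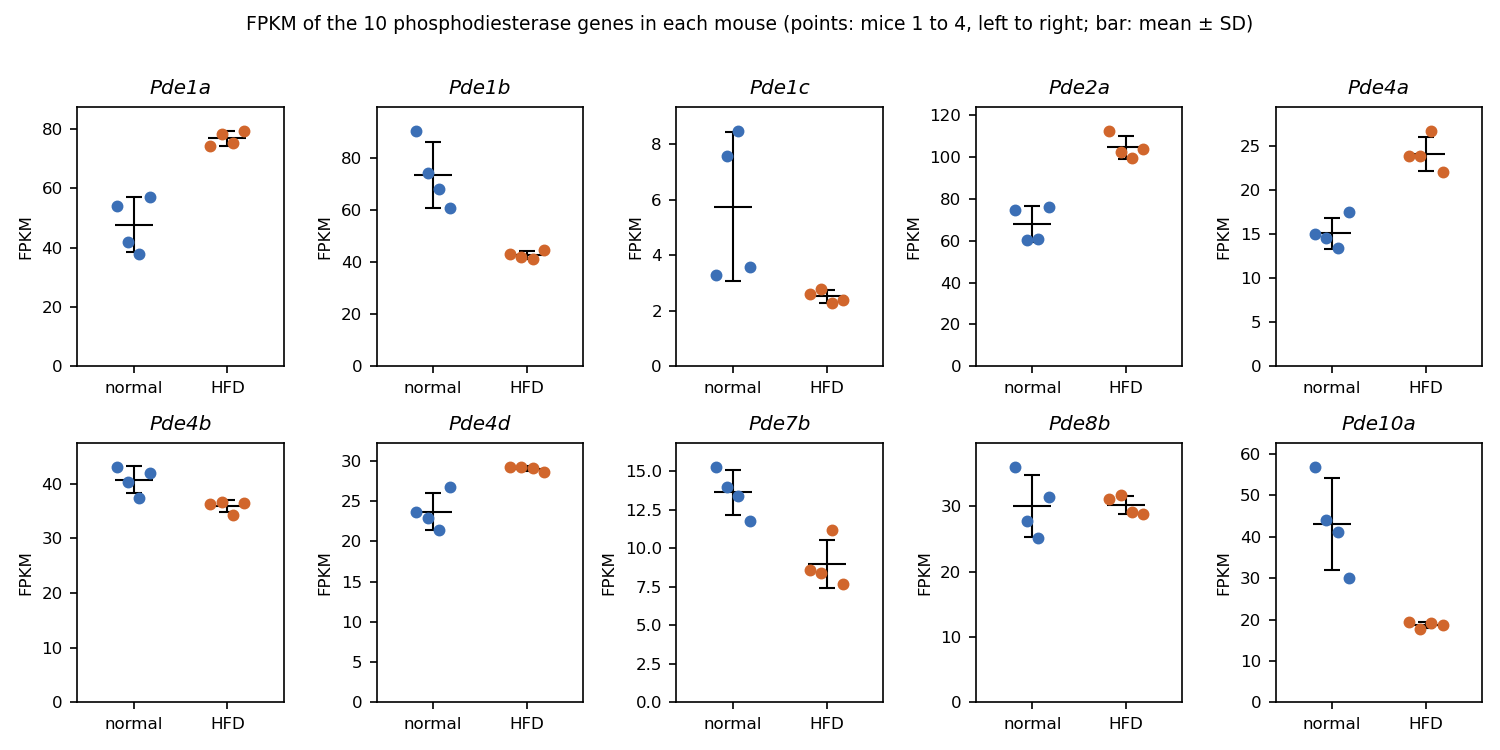
FPKM of each of the 10 phosphodiesterase genes (vertical axes from 0) in 4 normal diet and 4 HFD mice, with a point per mouse in the order of the mouse numbers and a bar for the mean ± SD. The diets separate in every panel but that of Pde8b, and the normal diet mice are the more widely spread in most panels, as for Pde1c (3.3 to 8.5 against 2.3 to 2.8).

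The libraries differed in the levels of marker genes of several brain regions and cell types, and the source of these differences was not tested. All 12 markers of cortical projection neurons were present, with a summed level of 370.7 to 545.4 FPKM on the normal diet and 575.7 to 703.2 on HFD, and 7 of the 12 were higher and 1 (Foxp2) lower on HFD. Of 12 markers of striatal projection neurons, 10 were in the values used, and 10 of 10 were lower on HFD without overlap, with sums of 245.2 to 435.5 FPKM on the normal diet and 85.3 to 93.3 on HFD. Drd2 and Adora2a, which define a class of these neurons, fell from 4.2 to 9.3 and 5.7 to 13.1 FPKM to at most 0.7 and 0.6. Markers of the cerebellum were uneven among the normal diet mice, with sums of 22.4, 223.8, 311.4 and 74.2 FPKM in mice 1 to 4 against 17.9 to 22.4 on HFD, and 4 of the 7 tested were lower, with Gabra6 at 0 in at least 1 HFD mouse. The cerebellum is not part of the cortex. The 9 oligodendrocyte markers were all lower on HFD, with sums of 2123.5 to 3498.4 against 1468.6 to 2041.2, and of the 7 thalamic markers tested 2 were lower. The thalamic sums were 64.4, 139, 121 and 50.5 FPKM in normal diet mice 1 to 4 and 46.3 to 50.5 on HFD, so that mice 2 and 3 stood apart in thalamic as well as cerebellar markers. They were also the highest for Pvalb (140.3 and 145.8 against 50.1 and 60.5 FPKM in mice 1 and 4), a marker of GABAergic interneurons. Other markers of that list went both ways. Gad2 and Slc32a1 were likewise highest in mice 2 and 3, Sst, Vip, Npy and Lhx6 were lowest in them, and Gad1 was neither. Of 7 microglial markers 0 were called by limma, with 1 at an unadjusted p below 0.05. Of 8 GABAergic interneuron markers 2 were higher and 4 lower, of 7 astrocyte markers 1 was higher and 3 lower, and of 5 blood markers 5 were lower. Endothelial markers were higher in 1 and lower in 2 of 7, pericyte and smooth muscle markers lower in 1 of 7, and hippocampal markers higher in 1 and lower in 2 of 5. Of 6 choroid plexus markers 2 were lower, and their sum was 950.6 FPKM in HFD mouse 4 against 23 to 79.6 in the other HFD mice. In bulk tissue, fewer cells of a type and less RNA per cell cannot be told apart.

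Pde10a showed the largest decrease among the 10 genes. Normal diet mice 1 to 4 had 56.9, 43.9, 41.1 and 29.9 FPKM, and HFD mice had 19.5, 17.8, 19.1 and 18.6. Every HFD mouse was below every normal diet mouse, and the HFD mice lay close together while the normal diet mice were widely spread. The mean was 42.95 ± 11.1 on the normal diet and 18.8 ± 0.733 on HFD, a log2 fold change of −1.16 (SE 0.16, adjusted p = 0.0012 by limma). The gene lies on the plus strand at chr17:8525372-8986648.

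Pde1b, the calcium-dependent enzyme that is also prominent in neurons receiving dopamine, followed the same order of mice. The normal diet mice had 90.6, 74.3, 68.3 and 60.9 FPKM and the HFD mice 43.0, 42.1, 41.4 and 44.8. The diets did not overlap, and mouse 1 was the highest and mouse 4 the lowest of the normal diet group, as for Pde10a. The mean fell by 41.8%, from 73.5 ± 12.6 to 42.8 ± 1.47, with a log2 fold change of −0.76 (SE 0.10, adjusted p = 0.0012 by limma). The gene (chr15:103503034-103530052, plus strand) is the shortest of the 10, at 27.0 kb.

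Pde7b, a cAMP-specific enzyme that is also transcribed in the striatum, had 15.3, 14.0, 13.4 and 11.8 FPKM on the normal diet and 8.6, 8.4, 11.2 and 7.7 on HFD. The third HFD mouse came close to the lowest normal diet mouse without reaching it. Means were 13.6 ± 1.45 and 8.98 ± 1.53, a log2 fold change of −0.61 (SE 0.12, adjusted p = 0.00503 by limma). With the cerebellar markers added to the fit it was −0.71 (adjusted p = 0.0566 by limma). Pde7b lies on the minus strand at chr10:20398004-20725078.

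These 3 genes ran with the striatal markers within the normal diet group only. Among the normal diet mice, all 6 pairs of mice stood in the same order for the striatal sum (435.5, 362.8, 344.7 and 245.2 FPKM) as for Pde10a, Pde1b and Pde7b. Among the HFD mice, where the striatal sum hardly varied, 3, 2 and 3 of the 6 pairs did. Here and below, each gene was compared with the striatal, cerebellar, cortical projection neuron and oligodendrocyte sums. A list is named because all 6 normal diet pairs matched it, so these matches were selected and were not tested. With the mean level of the striatal markers added to the limma fit, none of the 10 genes and none of the 13982 genes passed an adjusted p of 0.05, while 2 of the 10 and 277 of all genes had an unadjusted p below 0.05. In that fit the estimates for Pde10a and Pde1b turned to 1.13 (SE 0.25) and 0.65 (SE 0.25) at an adjusted p of 1.00. The marker level did not overlap between the diets, so that diet and the striatal marker level cannot be told apart in these mice.

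**Figure D2:**
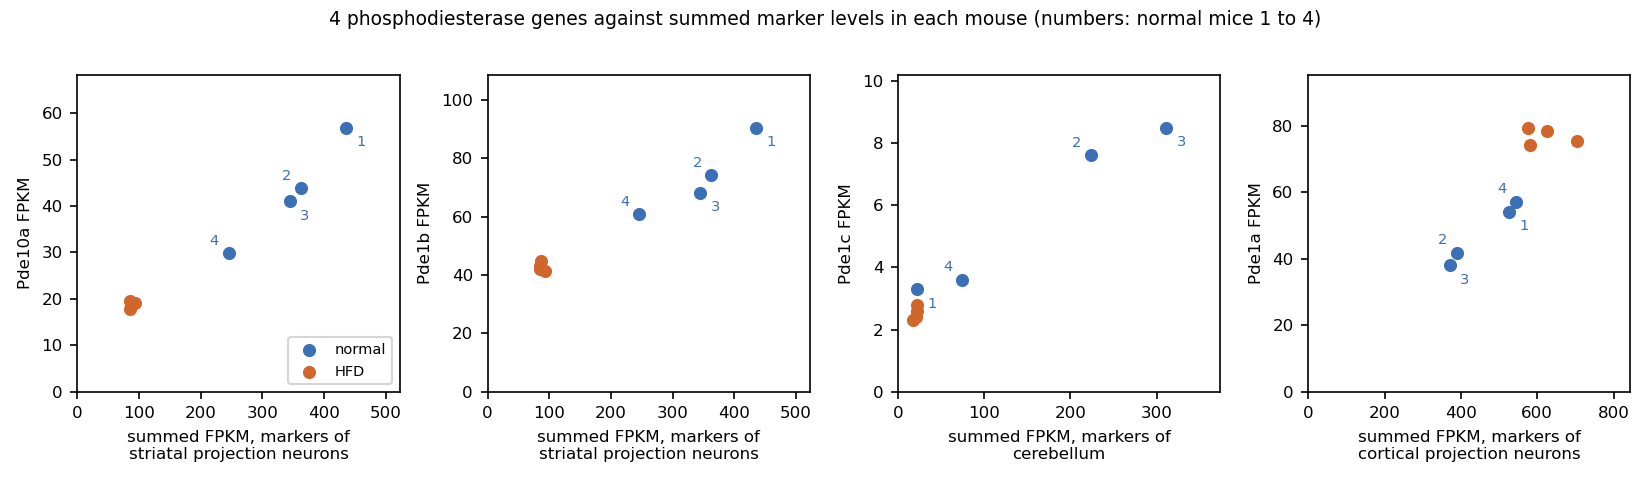
FPKM of Pde10a, Pde1b, Pde1c and Pde1a (vertical axes) against the summed FPKM of marker genes of striatal projection neurons, the cerebellum or cortical projection neurons (horizontal axes), with a point per mouse and the normal diet mice numbered. Among normal diet mice Pde10a and Pde1b are higher where the striatal sum is larger, Pde1c is high in mice 2 and 3, whose cerebellar sums are 223.8 and 311.4, and Pde1a is higher in all HFD mice than in any normal diet mouse.

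Pde1c, the least abundant member of the calcium-dependent family, was lower on HFD, and the size of the change rested on 2 mice. The normal diet mice had 3.3, 7.6, 8.5 and 3.6 FPKM and the HFD mice 2.6, 2.8, 2.3 and 2.4. Mice 2 and 3 were high and mice 1 and 4 lay just above the HFD group, in the same order as the cerebellar sum in 6 of 6 pairs of normal diet mice. The log2 fold change was −1.04 (SE 0.29, adjusted p = 0.022 by limma). Without normal diet mice 2 and 3 it was −0.44 (adjusted p = 0.0393 by limma), and with the mean log level of the cerebellar markers in the fit it was −0.02 (SE 0.21, adjusted p = 0.972 by limma). That mean level, like the striatal one, did not overlap between the diets (−0.85 to 2.88 on the normal diet, −1.50 to −1.15 on HFD, as log2 values about the mean of the 8 mice). For this gene and the others, a fit that holds both assumes that the relation seen mainly among normal diet mice also holds on HFD. The cause was not tested. The call was also lost without normal diet mouse 2 (adjusted p = 0.0592 by limma) and without HFD mouse 3 (adjusted p = 0.0529 by limma). The gene lies on the minus strand at chr6:56069804-56569103.

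Pde1a, the remaining calcium-dependent gene, changed in the opposite direction from Pde1b and Pde1c. Values were 54.1, 41.8, 38 and 57.1 FPKM on the normal diet and 74.1, 78.4, 75.3 and 79.4 on HFD. Normal diet mice 2 and 3, with the high cerebellar and thalamic sums, were the lowest of their group, and all HFD mice were above it. The mean rose by 60.8% to 76.8 ± 2.51 FPKM, with a log2 fold change of 0.70 (SE 0.12, adjusted p = 0.0028 by limma). Among the normal diet mice its order was that of the cortical projection neuron markers in 6 of 6 pairs, and in 2 of 6 among the HFD mice. With the cerebellar sum it shared the order in 1 of 6 normal diet pairs, so its order nearly reversed that sum as well. Without normal diet mice 2 and 3 the log2 fold change was 0.47 (adjusted p = 0.00281 by limma), and with the cerebellar markers in the fit the value was 0.33 (SE 0.12, adjusted p = 0.119 by limma). The gene lies on the minus strand at chr2:79834453-80129458.

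Within the Pde1 family the leading gene was therefore not the same on both diets. Pde1a made up 33.1 to 47.0% of the summed FPKM of Pde1a, Pde1b and Pde1c in normal diet mice and 61.9 to 63.6% in HFD mice. Pde1b took 57.7 ± 5.14% on the normal diet and 35.1 ± 0.767% on HFD. These shares compare FPKM, which are per length, and were not tested.

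Pde2a, the dual enzyme stimulated by cGMP, had 74.8, 60.4, 60.9 and 76.2 FPKM on the normal diet and 112.5, 102.1, 99.5 and 103.7 on HFD. All HFD mice were higher, and normal diet mice 2 and 3 were again the lowest. The mean rose by 53.4%, from 68.1 ± 8.6 to 104 ± 5.64 FPKM, with a log2 fold change of 0.62 (SE 0.09, adjusted p = 0.00123 by limma). Without normal diet mice 2 and 3 it was 0.47 (adjusted p = 0.00402 by limma), and with the cerebellar markers it was 0.38 (adjusted p = 0.0479 by limma). In GENCODE M21 the gene, on the plus strand at chr7:101421691-101512827, shares 3955 bp of exon with the gene model Gm45837 on the same strand, which is not in the values used, so that its level is uncertain.

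The Pde4 genes encode the main cAMP-specific enzymes of the brain, and the 3 measured did not move together. Pde4a had 15.0, 14.6, 13.4 and 17.6 FPKM on the normal diet and 23.9, 23.9, 26.8 and 22.1 on HFD. The groups did not overlap, the mean rose by 59.6%, and the log2 fold change was 0.67 (SE 0.09, adjusted p = 0.00109 by limma). With the cerebellar markers it was 0.54 (adjusted p = 0.0466 by limma). Its order among the mice was that of the cortical projection neuron markers in 6 of 6 pairs on the normal diet and 5 of 6 on HFD. The gene lies on the plus strand at chr9:21165714-21213248.

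Pde4d had 23.7, 22.9, 21.4 and 26.8 FPKM on the normal diet and 29.3, 29.2, 29.1 and 28.6 on HFD. The HFD mice were nearly equal and all above the normal diet mice. Its order was that of the cortical projection neuron markers in 6 of 6 pairs on the normal diet and 3 of 6 on HFD. The mean rose by 22.6%, with a log2 fold change of 0.30 (SE 0.06, adjusted p = 0.00808 by limma), which with the cerebellar markers was 0.18 (adjusted p = 0.259 by limma). The gene lies on the plus strand at chr13:108449948-109953461.

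Pde4b, the most abundant of the 3, changed least and in the other direction. It had 43.1, 40.2, 37.4 and 42.0 FPKM on the normal diet and 36.2, 36.6, 34.2 and 36.5 on HFD. The highest HFD mouse, at 36.6, lay just under the lowest normal diet mouse, at 37.4. The mean fell by 11.8%, with a log2 fold change of −0.18 (SE 0.05, adjusted p = 0.0276 by limma), and the call was lost on leaving out any 1 of normal diet mice 1, 2 and 4 and HFD mice 1, 2 and 3, where the adjusted p reached 0.0677 (limma). The gene lies on the plus strand at chr4:102087543-102607259. Of the summed FPKM of the 3 Pde4 genes, Pde4b held 51.2 ± 1.79% on the normal diet and 40.3 ± 1.65% on HFD, Pde4a 19.0 ± 0.923% and 27.1 ± 1.86%, and Pde4d 29.8 ± 0.875% and 32.6 ± 0.233%.

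**Figure D3:**
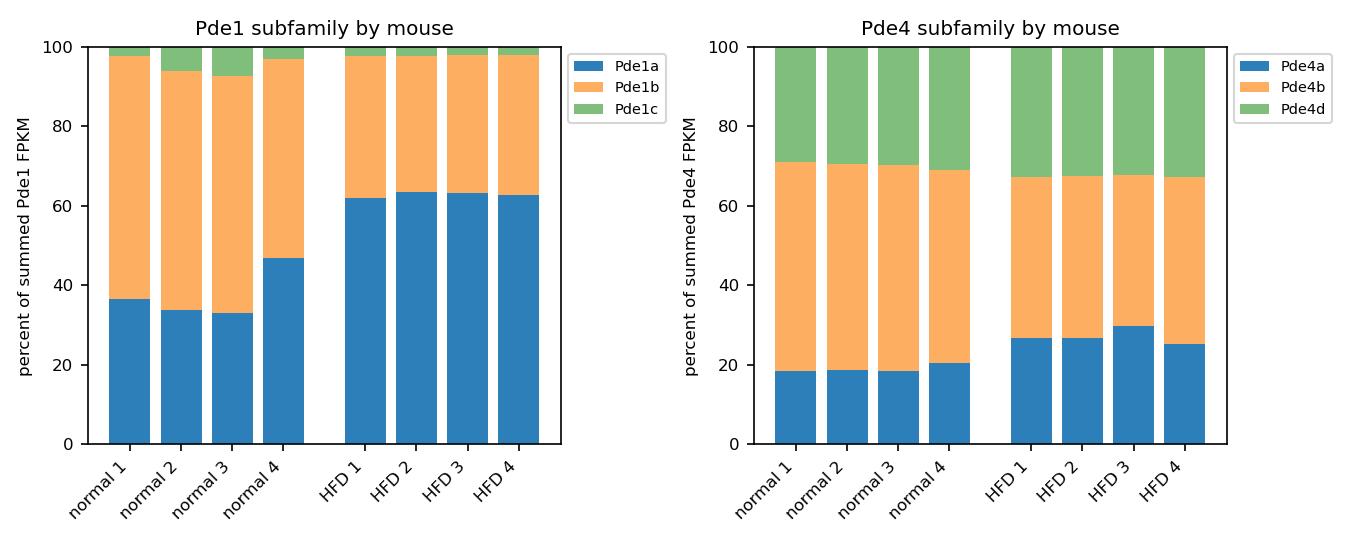
Share of each gene in the summed FPKM of the Pde1 family and of the 3 Pde4 genes (vertical axis, percent) in each of the 8 mice. Pde1a holds 33.1 to 47.0% of the Pde1 sum in normal diet mice and 61.9 to 63.6% in HFD mice, while Pde4b remains the largest part of the Pde4 sum on both diets.

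Pde8b, a cAMP-specific enzyme with high affinity for its substrate, was the 1 gene of the 10 that was not called. It had 36.1, 27.7, 25.2 and 31.4 FPKM on the normal diet and 31.1, 31.7, 29.2 and 28.9 on HFD, and the HFD mice lay inside the range of the normal diet mice. Means were 30.1 ± 4.74 and 30.2 ± 1.38. The log2 fold change was 0.02 with a 95% confidence interval of −0.20 to 0.24 (adjusted p = 0.905 by limma), so that a change of more than 1.5 times lies outside the interval. Its sign depended on the mice used: without normal diet mice 2 and 3 it was −0.16 (adjusted p = 0.152 by limma), and with the cerebellar markers in the fit, whose level did not overlap between the diets, it was −0.33 (adjusted p = 0.0393 by limma). Pde8b lies on the minus strand at chr13:95024454-95250336 and overlaps the antisense gene Gm48420 by 447 bp of exon. The libraries were stranded, but how strand was set in the quantification is not stated.

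Increases and decreases nearly cancelled in the sums. The 10 genes together amounted to 361 ± 36.5 FPKM on the normal diet (327.6 to 412.9) and 374 ± 5.27 on HFD (368.1 to 380.8), and the HFD mice lay inside the range of the normal diet mice. The sum of the genes for enzymes that cut both nucleotides was 238 ± 28.3 and 245 ± 6.26 FPKM, and that of the cAMP-specific genes was 123 ± 10.2 and 128 ± 3.05. Without normal diet mice 2 and 3 the difference in each of these sums was negative. RNA sums say nothing of the activity of enzymes with different turnover.

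**Figure D4:**
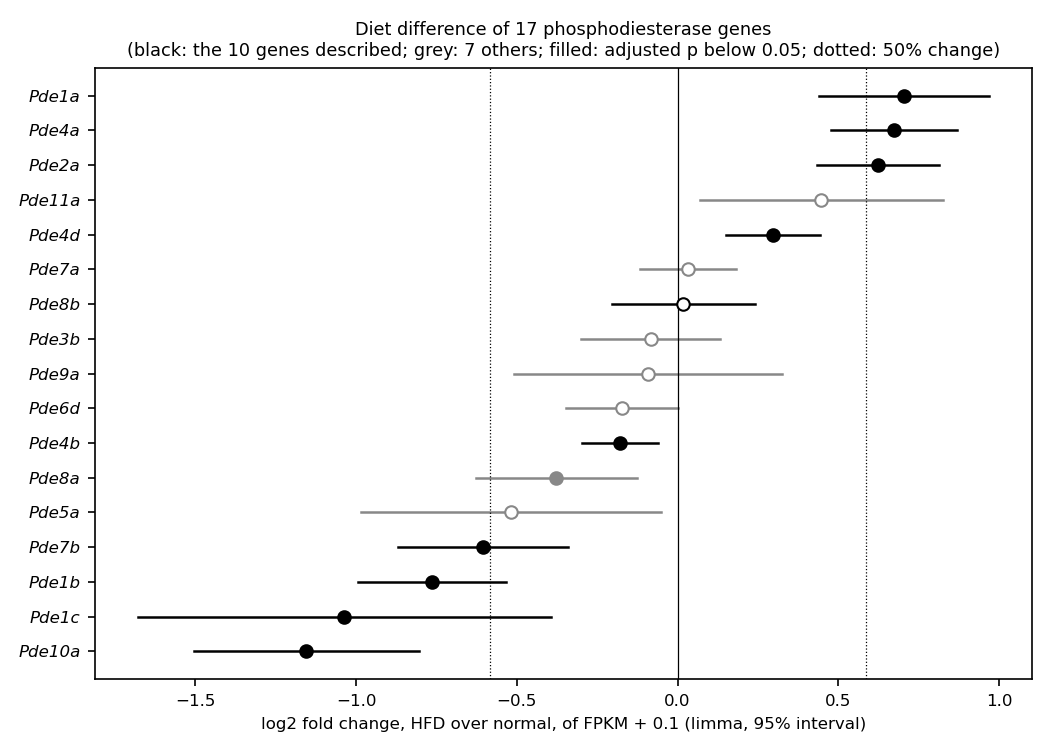
Log2 fold change (HFD over normal diet, of FPKM + 0.1) with its 95% confidence interval from limma for the 10 genes and for the other phosphodiesterase genes that were measured. The 10 genes range from −1.16 for Pde10a to 0.70 for Pde1a, and the interval of Pde8b spans 0.

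Of 14 other phosphodiesterase genes listed, 7 were in the values used, and 1 of the 7 differed between diets, none by over 50% and none without overlap. That gene was Pde8a, the close relative of Pde8b, with 6.5, 7.3, 6.9 and 5.6 FPKM on the normal diet and 4.7, 4.6, 6.1 and 4.8 on HFD (log2 fold change −0.38, SE 0.11, adjusted p = 0.0283 by limma). It was called in 3 of the 8 fits that left out 1 mouse, and was lost without normal diet mouse 2 or 3 or HFD mouse 1, 2 or 4, where the adjusted p reached 0.0784 (limma). In the normal diet mice it stood in the order of the oligodendrocyte markers in 6 of 6 pairs, and in 5 of 6 on HFD. The cGMP-specific Pde5a had 3.0, 5.8, 6.6 and 4.2 FPKM against 3.4, 3.1, 3.4 and 3.1 (log2 fold change −0.52, adjusted p = 0.0833 by limma), and passed once normal diet mouse 1 was left out (−0.73, adjusted p = 0.00732 by limma). Pde9a, also cGMP-specific, had 6.6, 10.7, 11.6 and 6.8 FPKM against 8.9, 7.4, 7.2 and 9.1 (log2 fold change −0.09, adjusted p = 0.731 by limma). In both genes normal diet mice 2 and 3 were the highest, and all 6 pairs of normal diet mice followed the cerebellar sum, while 2 of 6 pairs of HFD mice did for Pde5a and 4 of 6 for Pde9a. All 6 normal diet pairs and 3 of 6 HFD pairs did so for Pde6d, which encodes a carrier of prenylated proteins (17.9 ± 1.83 and 15.8 ± 1.01 FPKM, adjusted p = 0.116 by limma), and for Pde11a, a dual enzyme (1.13 ± 0.171 and 1.58 ± 0.275 FPKM, log2 fold change 0.45, adjusted p = 0.0672 by limma). Pde3b, the enzyme inhibited by cGMP, had 2.93 ± 0.263 and 2.75 ± 0.173 FPKM (log2 fold change −0.08, 95% confidence interval −0.30 to 0.13). Pde7a, the relative of Pde7b, had 7.03 ± 0.15 and 7.2 ± 0.56 FPKM (log2 fold change 0.03, 95% confidence interval −0.12 to 0.18).

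The genes that make, carry and read the cyclic nucleotide signal were examined in 9 lists, of which 67 of 87 genes were tested. Of these, 16 were higher and 8 lower on HFD, and 4 also exceeded 50%, 2 in each direction, beside 33.1% and 7.13% of all genes by the same rules. These shares were near those of all genes. The median log2 fold change over the 67 was 0.07. Among the adenylyl cyclases, which make cAMP, 5 of 8 were higher and 1 lower. The lower gene was Adcy5, the main cyclase of the striatum, with 42.8, 37.5, 35.0 and 32.0 FPKM on the normal diet and 24.1, 22, 22.7 and 22.4 on HFD (log2 fold change −0.68, SE 0.08, adjusted p = 0.000842 by limma). It thus shared with Pde10a and Pde1b the order of the normal diet mice. Among guanylyl cyclases and nitric oxide synthases 2 of 6 were higher, with the smallest adjusted p in Gucy1a2, a subunit of the soluble guanylyl cyclase (24.2 ± 2.94 and 29.8 ± 2.16 FPKM, log2 fold change 0.30, adjusted p = 0.0271 by limma), whose call was lost without normal diet mouse 2 or 3 or HFD mouse 2 or 4.

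Of 9 subunits and inhibitors of protein kinase A, 1 was higher, the inhibitor Pkig (60.8 ± 6.57 and 70.8 ± 2.57 FPKM, adjusted p = 0.0413 by limma), and it kept its call in 1 of 8 fits, that without normal diet mouse 4. Of the genes for protein kinase G, Prkg2 was higher (4.65 ± 0.1 and 6.68 ± 1.02 FPKM, log2 fold change 0.50, adjusted p = 0.00719 by limma) and the other was not called. Among 6 other effectors 2 were higher. Of 12 A kinase anchoring proteins 1 was higher and 1 lower, the latter being Akap9 (20.9 ± 1.6 and 15.5 ± 0.735 FPKM, log2 fold change −0.43, adjusted p = 0.00178 by limma). Of 7 partners of phosphodiesterases, Calm2, 1 of the genes for the calmodulin that activates Pde1, was lower (1287 ± 94.8 and 988 ± 29.5 FPKM, log2 fold change −0.38, adjusted p = 0.00411 by limma). After quantile normalization it was −0.16 and the call was lost (adjusted p = 0.086 by limma).

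Of 7 G protein alpha subunits that act on adenylyl cyclase 2 were higher and 3 lower, with the smallest adjusted p in Gnal, which couples dopamine receptors to Adcy5 in the striatum (38.5 ± 3.03 and 25.6 ± 0.81 FPKM, log2 fold change −0.58, adjusted p = 0.000556 by limma). Of 10 kinase A substrates and CREB factors 2 were higher and 2 lower. The higher genes were the CREB coactivators Crtc1 (10.9 ± 1.2 and 17.1 ± 2.27 FPKM, log2 fold change 0.64, adjusted p = 0.00251 by limma) and Crebbp (13.1 ± 0.943 and 20.1 ± 1.39 FPKM, log2 fold change 0.62, adjusted p = 0.000729 by limma). Ppp1r1b, which encodes the kinase A substrate DARPP-32 of striatal projection neurons, had 115.5, 94.1, 88.3 and 62.8 FPKM on the normal diet and 22.6, 26.1, 33.2 and 27.6 on HFD (log2 fold change −1.70, adjusted p = 0.000545 by limma). Ppp1r1b and Adcy5 are also 2 of the 10 striatal markers.

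**Figure D5:**
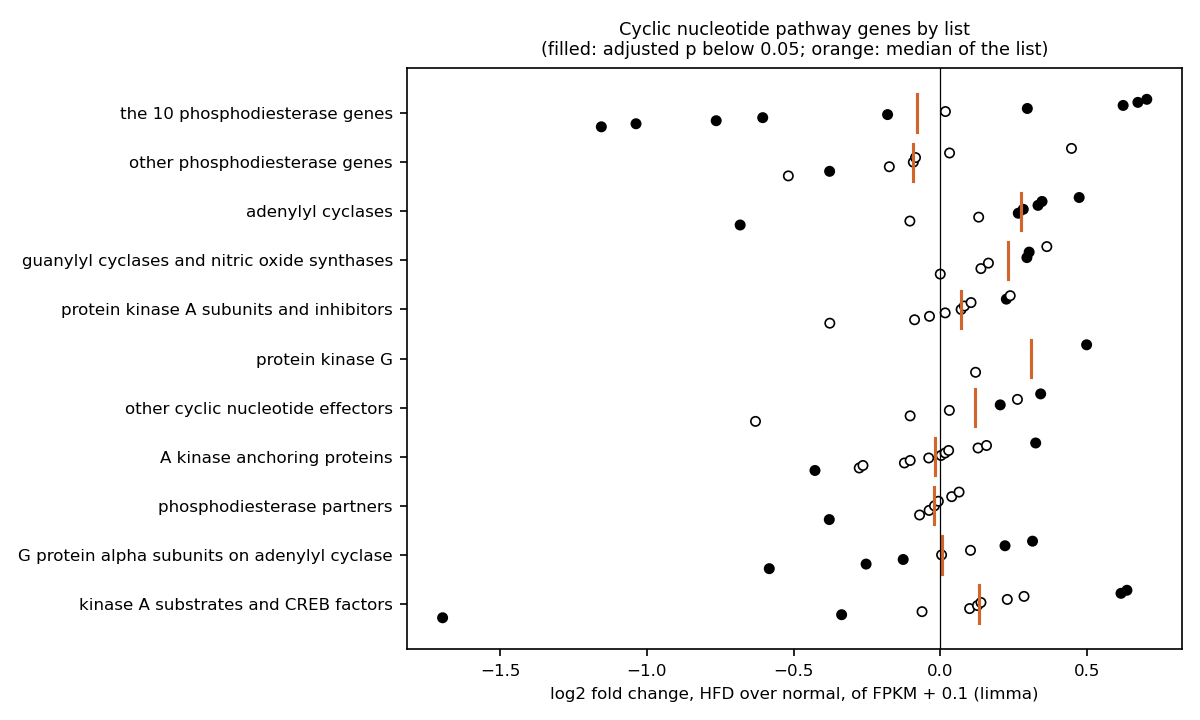
Log2 fold change (HFD over normal diet, of FPKM + 0.1) of each tested gene of the 10 phosphodiesterases, the other phosphodiesterases and the 9 pathway lists, with filled points for an adjusted p below 0.05 and an orange line for the median of each list. The point farthest to the left is Ppp1r1b at −1.70, and 5 of 8 adenylyl cyclases lie to the right of 0 with filled points while Adcy5 lies at −0.68.

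The genes closest to each phosphodiesterase across the 8 mice, by Pearson's r of log2(FPKM + 0.1) after the diet means were subtracted, are given as a description, since all points share their libraries. For Pde10a they were Rarb (r = 0.983), Dlx6 and Rgs9 (r = 0.967), and Rgs9 is 1 of the striatal markers. For Pde1b they were Tmco3 (r = 0.981), Gng7 and Cd84, and for Pde7b Man2a2 (r = 0.991), Slc48a1 and Ppp1r16b. Pde1c stood closest to Syt9 (r = 0.996), Appl2 and Astn2. The nearest genes of those that were higher on HFD were Lgi1 (r = 0.996) and RP23-242B14.1 for Pde1a, Mlst8 (r = 0.996), Cspg5 and Acot3 for Pde2a, Fbxl19 (r = 0.987), Smap1 and Kif1a for Pde4a, and RP24-317M4.3 (r = 0.981), Xylt1 and Tusc1 for Pde4d. For Pde4b they were Hspa12a (r = 0.998), Trub1 and Kcna4, and for Pde8b Otud1 (r = 0.994), Cyp46a1 and Sgtb.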

How the data were processed

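Cortexes of 4 normal diet and 4 HFD mice were sequenced by the authors, with 1 library per mouse. The deposited FPKM were made by the authors with FastQC, Trimmomatic, STAR (mm10) and Cuffnorm (GENCODE M17, GRCm38.p6), whose versions are not given. The study states a filter on genes with a low mean or a 0, yet 14 of 13996 genes lay outside it, possibly through rounding to 0.1. The other 13982 were tested (mean FPKM of 1 or more, never 0). Log2(FPKM + 0.1) was compared with limma 3.58.1 in R 4.3.3 (variance trend, two-sided, Benjamini-Hochberg), and fold changes on this scale understate changes of low genes. Sums of FPKM per mouse were 562431 to 639142. Depth is unknown, so no counting interval can be given. Python 3.11.15, numpy 2.4.6, pandas 2.3.3, scipy 1.17.1 and matplotlib 3.10.9 were used for tables and plots. Gene coordinates are from GENCODE M21 on GRCm38, which may differ from M17, and promoters from RefSeq. The fit was tested on simulated data. Genes were named by a rule: the 10 genes, each other measured phosphodiesterase gene, in each pathway list the genes past the threshold and 50% or else the smallest adjusted p, and the 3 genes most alike, of which a few are not reported here. The single markers Drd2, Adora2a, Foxp2, Gabra6, Pvalb and the other GABAergic interneuron markers were named after their values were seen. The members and lists were chosen with earlier results of these data known. Alternatives were other added constants, filters, rescaling, no trend, the replicate number as a block, and each mouse left out. Leaving out 2 mice together and marker covariates were added after seeing the data. The Salmon values were not used here.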

Additional observations from a re-analysis of the deposited data

Results flagged for a closer look

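Single mice that stood apart from the other mice of their diet were sought in 70 groups of 4 values with Dixon's criterion (the gap to the nearest mouse over the range), which chance passes in about 5% of groups, or 3.5 of 70. It was passed 4 times. HFD mouse 3 had 34.2 FPKM of Pde4b while the other HFD mice had 36.2 to 36.6. The same mouse had 6.1 FPKM of Pde8a against 4.6 to 4.8, so that these flags share a library. One normal diet mouse had 4.8 FPKM of Prkg2 where the other mice were listed at 4.6, and FPKM are rounded to 0.1. In 1 normal diet mouse Pde1b made up 50.1% of the Pde1 sum, against 59.5 to 61.2% in the others.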

How the results depend on the processing

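Of the 10 phosphodiesterase genes, 9 passed an adjusted p of 0.05 in the reported fit, and 7 to 9 did with any 1 mouse left out, while 7 also exceeded 50% (5 to 7 with 1 mouse left out). The count of other phosphodiesterase genes, 1, became 0 to 2 (2 without normal diet mouse 1), and that of the 67 pathway genes, 24, became 16 to 24. Other added constants, filters and rescaling left 8 or 9 of the 10 called, with Pde1c untested at a mean FPKM of at least 5. Without the variance trend 2 other phosphodiesterase genes passed. Mice with the same number in both diets did not deviate together (r of −0.11 to −0.03 over genes, beside −0.06 to 0.09 for different numbers). Whether the numbers pair mice is not stated in the labels. With the replicate block 9 of the 10 genes, 7 past 50%, 1 other phosphodiesterase gene and 17 pathway genes passed, with 3390 of all genes against 4626.

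Without normal diet mice 2 and 3, the 9 genes called in the reported fit all kept their call, beside 2743 of all 13982 genes (19.6%). In that fit 3 of the 10 genes exceeded 50%, and 0 of the other phosphodiesterase genes passed (none of the 7 by limma, Pde8a at an adjusted p of 0.19). Without the same mice the HFD minus normal difference was −3.1 FPKM in the cAMP-specific sum in place of 5.05 and −8.35 in the dual-specificity sum in place of 7.3. In the sum of all 10 it was −11.5 in place of 12.4 (1.12 to 29.6 with 1 mouse left out). With the cerebellar markers as a covariate, 6 of the 10 passed, 2 of them past 50%, with 0 other phosphodiesterase genes, 9 pathway genes and 908 of all 13982 genes (6.49%). Of the 9 called in the reported fit 5 kept their call, Pde1a, Pde1c, Pde4d and Pde7b lost it, and Pde8b gained one. The levels of both marker lists separate the diets. With the striatal markers as a covariate all 4 counts were 0, beside 277 genes with an unadjusted p below 0.05 by limma. The causes were not tested.

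Signs changed as follows on the log2 scale. Pde8b, 0.02 in the reported fit, was −0.063 to 0.11 with 1 mouse left out (−0.017 without normal diet mouse 2, −0.063 without mouse 3, −0.0052 without HFD mouse 2), −0.16 without normal diet mice 2 and 3, and −0.33 with the cerebellar covariate. Pde9a, −0.22 to 0.049 with 1 mouse left out, was 0.010, 0.049, 0.27 and 0.53 without normal diet mouse 2, mouse 3, both, and with the cerebellar covariate. Pde7a was −0.013 to 0.065 with 1 mouse left out, and Pde3b 0.023 without both normal diet mice. The cerebellar covariate gave 0.10 for Pde3b, 0.24 for Pde5a and 0.042 for Pde6d. The striatal covariate, at an adjusted p of 1.00 by limma throughout, gave 0.65 for Pde1b, −0.00036 for Pde4a, −0.17 for Pde4d, 0.17 for Pde7b, 1.13 for Pde10a, 0.11 for Pde3b, −0.031 for Pde7a, 0.17 for Pde8a, 0.31 for Pde9a, 0.38 for Adcy5, 0.013 for Akap9, 0.043 for Gnal, −0.034 for Pkig and 0.28 for Ppp1r1b. Adcy5 and Ppp1r1b are among the 10 genes of that covariate, which fixes their values in part. The causes were not tested. Values are rounded to 0.1 FPKM, which limits the precision of the lowest genes, such as Pde11a.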
